A study of Mus musculus with 23 samples.

Results

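The genes of the integrin and laminin subunits were followed through differentiation in C2C12, an established mouse myoblast line that divides in rich serum and, once serum is withdrawn, forms multinucleate myotubes. They were chosen by symbol (Itga, Itgb, Lama, Lamb or Lamc followed by the chain's number or letter) and by a summed estimated count of at least 50 over all libraries. Of 37 symbols with such a name among 32793 rows, 34 met the minimum: 15 integrin alpha chains, 8 integrin beta chains, 5 laminin alpha chains, 3 laminin beta chains and 3 laminin gamma chains. Just inside the minimum lay Itga9 (53 counts), Itga2 (62), Itgae and Lama1 (63 each). Outside it lay Itga8 (8 counts), Itgax (3) and Itgad (2). After the filter on low counts 14187 genes were tested, among them 32 of the 34 chains, and Itgae and Lama1 were not tested.

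The 23 libraries were made from poly(A)-selected RNA of cells labelled as control (here WT) or Runx1KO (here KO), Runx1 being a Runt-family transcription factor. RNA was taken on day 0, in growth medium containing 20% FBS, and after 1, 3 or 6 days of differentiation in 2% horse serum. The last time point is day 6 by the sample titles, which were used, and 5 days by the series text. There were 8 groups of 3 libraries, apart from WT day 0 with 2. The labels name no other allele or agent, and how the knockout was made and whether it is 1 clone are not given in the sources used here. They also do not say that replicates were separate cultures, so p-values measure only the spread between these libraries, which may be technical.

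The libraries were alike in depth, with 22197606 to 23684077 estimated counts. Runx1 mRNA was higher in the libraries labelled KO: it was 28.5 to 29.6 TPM (a level scaled for transcript length and library depth) in these and 20.1 to 21.2 TPM in WT on day 0, and 82.1 to 85.3 against 38.1 to 49.8 TPM on day 6. As how the knockout was made is not given, this level cannot test the label. Every direction below is that of the libraries as labelled, also where only "KO" is written. Replicate 2 of KO day 1 stood apart, with a median absolute log2 deviation of 0.320 from its fellow replicates against 0.0778 to 0.192 in the other libraries. The myoblast genes Myod1 (137 to 473 TPM) and Des (531 to 1589 TPM) were present in every library. Of the leukocyte and endothelial marker genes, Ptprc reached at most 1 count, and Adgre1, Tie1, Emcn and Cldn5 were at 0 counts throughout. Other genes of these lists were seen at low levels, with at most 1.41 TPM for Csf1r (70 counts), 1.46 for Vwf (65 counts), 0.43 for Pecam1 and 0.24 for Tek. Others still were higher: Cd14 at 8.13 to 19.1 TPM in every library, Cd68 at up to 17.0 and Krt14 at up to 14.8 TPM, and the fibroblast genes Ly6a at 38.65 to 1129.6, Col1a1 at 3.98 to 2105 and Dcn at 0.3 to 60.6 TPM.

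Integrins are surface receptors built from 1 alpha and 1 beta chain, and the alpha chain largely sets which matrix protein is bound. Laminins are the cross-shaped proteins of basement membranes, built from an alpha, a beta and a gamma chain. In skeletal muscle the pair of Itga7 and Itgb1 is the main laminin receptor of the fibre, laminin with the Lama2 chain is the main laminin of its basement membrane, and defects of LAMA2 or ITGA7 cause congenital muscle disease. Levels are given in TPM and tests were run on estimated counts with edgeR's quasi-likelihood test and Benjamini-Hochberg adjustment over the 14187 genes; a difference was called at an adjusted p under 0.05, and its size is a log2 fold change.

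A few chains made up most of the integrin and laminin mRNA. The 15 integrin alpha chains summed to 395 ± 27.2 TPM (SD, n = 2) in WT on day 0 and to 835 ± 77.0 TPM (SD, n = 3) on day 6, and in the libraries labelled KO to 410.1 ± 8.45 and 938 ± 32.2 TPM (SD, n = 3 each). Itga7, Itga5 and Itga3 held 32.2%, 28.1% and 27.4% of the alpha sum in WT on day 0. Itgb1, the beta chain shared by most matrix receptors, held 71.4% of the beta sum, and Lama5 held 98.1% of the laminin alpha sum.

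**Figure D1:**
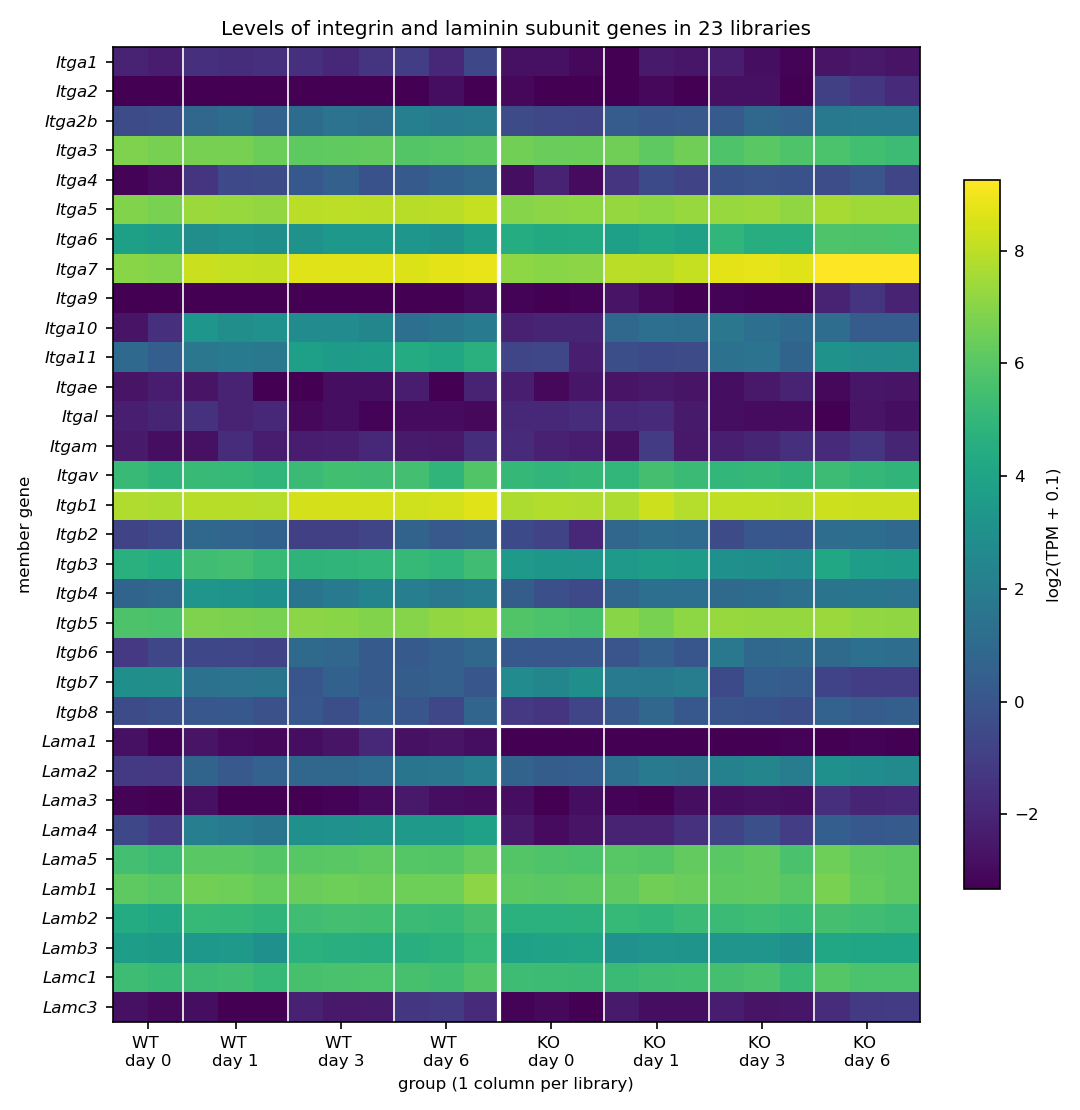
Each row is 1 of the chain genes reported and each column a library, ordered by genotype label and day, with colour giving log2(TPM + 0.1). Itga7, Itgb1, Itga5, Itga3 and Itgb5 are the brightest integrin rows, Lama5, Lamb1 and Lamc1 the brightest laminin rows, and the Lama4 row is darker in the columns labelled KO than in the WT columns of the same day.

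Between genotypes, the laminin-binding chain Itga6, the laminin chain Lama2 and the epithelial-type chain Itgb6 were called higher in the libraries labelled KO on all 4 days. The collagen-binding chain Itga11, the vitronectin and fibronectin receptor chain Itgb3 and the laminin chain Lama4 were called lower on all 4 days. Itga5 and Lamb3 were called both ways, higher on day 0 and lower on days 3 and 6. Itgal, Itgam, Itgav, Itgb8, Lamb1 and Lamc3 were called on no day.

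On day 0, 10 of the 32 tested chains were called, 7 up and 3 down in KO, where 17.5% of all tested genes were called (7.36% up, 10.1% down). Day 1 had 11 called chains, 4 up and 7 down, against 42.2% of all genes (22.9% up, 19.2% down). Day 3 had 15, with 5 up and 10 down, against 43.2% (24% up, 19.2% down). Day 6 had 21, with 11 up and 10 down, against 42.9% (22% up, 20.8% down). Of the 11, Itga2, Itga9 and Lama3 met the count minimum only through KO day 6, the group where they were high, and their place in the counts for that group is no finding. With these 3 left aside, 18 of 29 chains were called on day 6, with 8 up and 10 down, and 7 by at least 2-fold, of which 2 were up. The share of chains called was above that of all genes on day 0 and, without those 3, on day 6, and near it on day 3. Differences of at least 2-fold were called for 5, 8, 9 and 10 chains on days 0, 1, 3 and 6, against 5.59%, 8.83%, 11.1% and 12.2% of all genes. The median log2 fold change of the chains tested was 0.09, 0.14, -0.08 and 0.19, beside -0.00105, 0.03, 0.04 and 0.00371 over all tested genes, and without those 3 chains the day 6 median was -0.04. On the authors' TPM scale (log2 of TPM + 1) the day 0 calls split into 4 higher and 4 lower, where 31.3% of the calls of all genes were higher, and with library size alone into 5 and 3, where 29.5% were higher. On day 1 the chains' share was below that of all genes, but without replicate 2 of KO day 1 it was near it, with 14 chains called, 7 in each direction, against 40.1% of all genes.

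**Figure D2:**
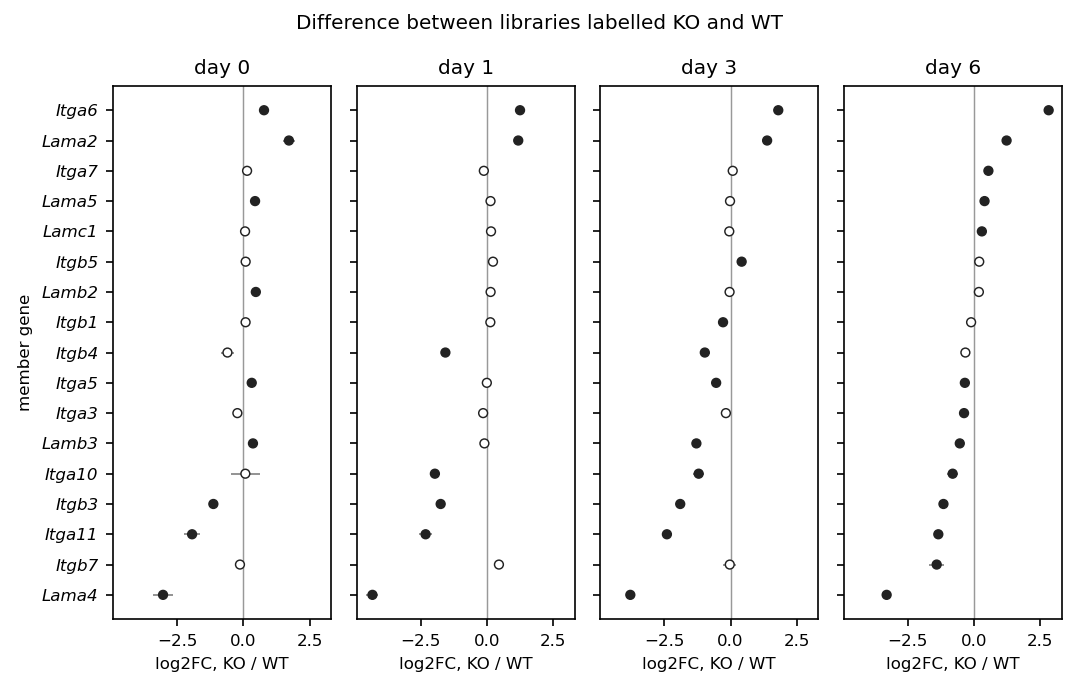
For the 17 chains called on some day with a group mean of at least 5 TPM, the log2 fold change of the libraries labelled KO over WT is plotted by day, with bars of 1 SE and filled points for called differences. Itga6 moves from 0.78 on day 0 to 2.82 on day 6, Lama2 lies to the right and Lama4, Itga11 and Itgb3 to the left of 0 in all 4 panels.

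With time in differentiation medium, most called chains rose. Against day 0, WT had 20 of 32 chains called on day 1, 15 up and 5 down, where 54.7% of all genes were called (27.1% up, 27.6% down). By day 3 WT had 19, of which 15 were up and 4 down, against 58.2% (29.2% up, 29% down). By day 6 WT had 24, of which 20 were up and 4 down, against 63.6% (32.6% up, 31.1% down). KO had 14 chains called on day 1, 11 up and 3 down, against 52.3% (27.2% up, 25.2% down). By day 3 KO had 19, of which 14 were up and 5 down, against 57.6% (30.4% up, 27.2% down). By day 6 KO had 27, of which 24 were up and 3 down, against 70% (36.6% up, 33.5% down). The comparisons within a genotype share their day 0 libraries. The median log2 fold change of the chains on day 6 was 1.02 for WT and 1.16 for KO, beside 0.05 in each over all tested genes. Without Itga2, Itga9 and Lama3, KO had 24 of 29 called, 21 up and 3 down, with a median of 0.56, and WT had 24 of 29, 20 up and 4 down, with a median of 1.01. The change since day 0 itself differed between genotypes (an interaction) for 2 chains on day 1, both lower in KO, where 3.95% of all genes were called (2.64% up, 1.31% down). It differed for 5 chains on day 3, 1 up and 4 down, against 10.7% (6.65% up, 4.06% down), and for 5 on day 6, 2 up and 3 down, against 13% (7.54% up, 5.42% down).

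Among the laminin-binding chains, Itga7 rose in both genotypes, Itga3 fell in both, and Itga6 lay below its day 0 level on day 6 in WT and above it in KO, after a fall to day 1 in both. Itga7 (chr10:128933421-128958286; coordinates are from RefSeq on GRCm38, the build named mm10) encodes the laminin receptor chain of muscle. In WT, Itga7 stood at 131 and 123 TPM on day 0, 301, 283 and 275 TPM on day 1, 401, 412 and 398 TPM on day 3 and 391, 433 and 466 TPM on day 6. In KO, Itga7 stood at 137, 130.1 and 135 TPM on day 0, 249, 238 and 284 TPM on day 1, 434, 441 and 402 TPM on day 3 and 612, 609 and 599 TPM on day 6. The genotypes overlapped on days 0, 1 and 3, and on day 6 all 3 libraries labelled KO were above all WT libraries. From day 0 to day 6 Itga7 rose by 1.43 (SE 0.08, adjusted p = 9.95e-13) in WT and by 1.83 (SE 0.07, adjusted p = 5.01e-16) in KO, and the genotypes differed by 0.54 (SE 0.07, adjusted p = 1.55e-06) on day 6.

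Itga6 (chr2:71786886-71858427) encodes a laminin receptor chain of epithelia and of stem and progenitor cells. In WT, Itga6 stood at 13.9 and 12.5 TPM on day 0, 7.35, 8.15 and 7.67 TPM on day 1, 8.8, 10.3 and 10.2 TPM on day 3 and 9.75, 8.56 and 12.7 TPM on day 6. In KO, Itga6 stood at 21.8, 20.1 and 20.3 TPM on day 0, 13.8, 17.2 and 14.7 TPM on day 1, 31.2, 22.8 and 22.8 TPM on day 3 and 55.0, 53.5 and 52.5 TPM on day 6. Every library labelled KO was above every WT library of its day, and the gap was widest on day 6. The difference was 0.78 (SE 0.14, adjusted p = 0.000257) on day 0, 1.25 (SE 0.13, adjusted p = 6.4e-08) on day 1, 1.80 (SE 0.13, adjusted p = 9.03e-11) on day 3 and 2.82 (SE 0.13, adjusted p = 2.86e-14) on day 6, the last being 7.04-fold. Over time Itga6 was lower on day 6 than on day 0 in WT, with -0.68 (adjusted p = 0.000181) and libraries that overlapped, and higher in KO, with 1.36 (SE 0.12, adjusted p = 7.46e-10).

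Itga3 (chr11:95044475-95076844) encodes a receptor chain for laminins that hold Lama3 or Lama5. In WT, Itga3 stood at 112 and 104 TPM on day 0, 101, 103 and 86.9 TPM on day 1, 71.2, 73.8 and 76.4 TPM on day 3 and 58.4, 63.4 and 68.5 TPM on day 6. In KO, Itga3 stood at 96.9, 83.8 and 85.4 TPM on day 0, 91.6, 71.1 and 91.9 TPM on day 1, 55.8, 65.0 and 56.3 TPM on day 3 and 51.4, 42.9 and 39.9 TPM on day 6. Levels were lowest on day 6 in both genotypes. All libraries labelled KO lay below all WT libraries on days 0, 3 and 6, and on day 1 the genotypes overlapped. Itga3 fell from day 0 to day 6 by a log2 fold change of -0.95 (SE 0.11, adjusted p = 1.15e-07) in WT and -1.11 (SE 0.10, adjusted p = 1.58e-09) in KO, and the genotypes differed by -0.38 (SE 0.10, adjusted p = 0.00424) on day 6.

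As shares of the integrin alpha sum, Itga7 went from 32.2% ± 0.681 (SD, n = 2) on day 0 to 51.5% ± 1.71 (SD, n = 3) on day 6 in WT and from 32.7% ± 0.242 (SD, n = 3) to 64.7% ± 1.57 (SD, n = 3) in KO. Itga3 went from 27.4% to 7.60% in WT and from 21.6% to 4.76% in KO. Itga6 went from 3.34% to 1.23% in WT and from 5.05% to 5.72% in KO. The share of Itga7 was thus higher on day 6 than on day 0 in both genotypes.

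Itgb1 (chr8:128685654-128733579) is the beta partner of these alpha chains. In WT, Itgb1 stood at 220.1 and 207 TPM on day 0, 238, 239 and 234 TPM on day 1, 354, 349.8 and 343 TPM on day 3 and 331, 338 and 400.2 TPM on day 6. In KO, Itgb1 stood at 211, 223 and 218 TPM on day 0, 210.5, 318 and 232 TPM on day 1, 267, 268 and 253 TPM on day 3 and 313, 309 and 308 TPM on day 6. The genotypes overlapped on days 0 and 1, and on days 3 and 6 the libraries labelled KO lay below WT, with a called difference on day 3 of -0.28 (SE 0.08, adjusted p = 0.00818). Itgb1 rose by day 6 with 0.51 (SE 0.09, adjusted p = 6.26e-05) in WT and 0.31 (SE 0.08, adjusted p = 0.00236) in KO. The high value of 318 TPM on day 1 is that of replicate 2 of KO day 1.

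Itgb4 (chr11:115974725-116008412) is the beta chain of epithelial hemidesmosomes and pairs with Itga6. In WT, Itgb4 stood at 1.55 and 1.76 TPM on day 0, 9.18, 9.14 and 7.91 TPM on day 1, 2.9, 3.38 and 5.06 TPM on day 3 and 4.05, 3.23 and 3.87 TPM on day 6. In KO, Itgb4 stood at 1.22, 0.73 and 0.58 TPM on day 0, 1.65, 2.29 and 2.3 TPM on day 1, 1.97, 2.06 and 2.37 TPM on day 3 and 2.79, 2.87 and 2.69 TPM on day 6. WT peaked on day 1, and the libraries labelled KO were below it by -1.57 (SE 0.18, adjusted p = 2.93e-07) on day 1 and -0.97 (SE 0.19, adjusted p = 0.000219) on day 3. On the same days its partner Itga6 was higher in KO.

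These changes ran beside a difference in the summed level of muscle genes. The summed level of 9 myogenic markers was 2963 to 3396 TPM in WT and 12011 to 13677 TPM in KO on day 6, 3426 to 3520.2 against 4938 to 7763 TPM on day 3, 1340.5 to 1428 against 1334 to 1687 TPM on day 1, where the genotypes overlapped, and 1027 to 1039 against 1383 to 1436 TPM on day 0. At its highest Acta1 alone reached 9018 TPM, while Myf5 and Pax7 reached at most 47.8 and 33.2 TPM, so single markers need not follow the sum. The part of these markers in the results for Itga7, Itga6 and the other chains was not tested. In such bulk samples a change in the number of cells of a type and in the RNA per cell cannot be told apart.

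**Figure D3:**
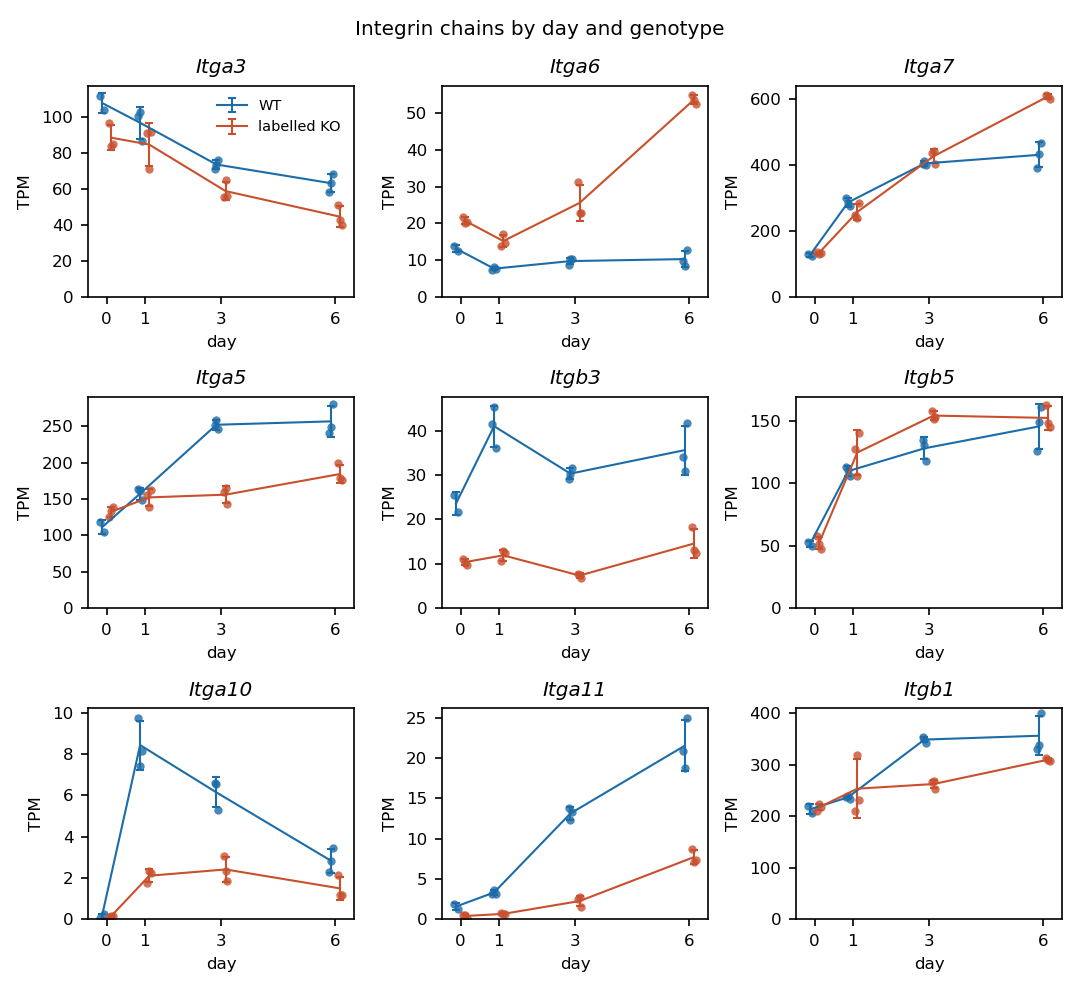
TPM of 9 integrin chains is plotted against day, with 1 point per library and lines joining group means with bars of 1 SD, in blue for WT and orange for the libraries labelled KO. Itga6 separates upward and Itgb3, Itga10 and Itga11 downward in the libraries labelled KO, and Itga7 separates on day 6 alone.

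Among the RGD-binding chains, which recognise the Arg-Gly-Asp motif of fibronectin and vitronectin, Itgb3 was below WT in KO on each day, Itga5 changed side and Itgb5 rose with time in both genotypes. Itga5 (chr15:103344286-103366791) encodes the classical fibronectin receptor chain. In WT, Itga5 stood at 118 and 104 TPM on day 0, 163, 161 and 148 TPM on day 1, 251, 259 and 246 TPM on day 3 and 241, 248 and 281 TPM on day 6. In KO, Itga5 stood at 125, 134 and 138 TPM on day 0, 156, 139 and 162 TPM on day 1, 160.0, 165 and 142 TPM on day 3 and 199, 179 and 176 TPM on day 6. On day 0 the libraries labelled KO were the higher ones, and on days 3 and 6 all of them lay below WT. The difference was 0.32 (SE 0.08, adjusted p = 0.0106) on day 0, -0.54 (SE 0.08, adjusted p = 3.23e-06) on day 3 and -0.35 (SE 0.08, adjusted p = 0.000568) on day 6. Its call on day 0 did not hold on the TPM scale and without replicate 2 of WT day 0, with values of 0.25 to 0.27. From day 0 to day 6 Itga5 rose by 1.03 (SE 0.09, adjusted p = 4.92e-10) in WT and 0.36 (SE 0.08, adjusted p = 0.000182) in KO, and its share of the alpha sum on day 6 was 30.8% in WT and 19.6% in KO.

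Itgb3 (chr11:104608000-104670476) pairs with Itgav as a vitronectin receptor and with Itga2b on platelets. In WT, Itgb3 stood at 25.4 and 21.8 TPM on day 0, 41.6, 45.4 and 36.1 TPM on day 1, 29.1, 30.3 and 31.6 TPM on day 3 and 34.2, 31 and 41.8 TPM on day 6. In KO, Itgb3 stood at 11.2, 10.2 and 9.8 TPM on day 0, 10.5, 12.8 and 12.4 TPM on day 1, 7.76, 7.55 and 6.72 TPM on day 3 and 18.2, 13.1 and 12.4 TPM on day 6. No library labelled KO reached the lowest WT library of any day. The difference was -1.13 (SE 0.11, adjusted p = 5.35e-08) on day 0, -1.75 (SE 0.10, adjusted p = 4.28e-12) on day 1, -1.90 (SE 0.10, adjusted p = 1.16e-12) on day 3 and -1.16 (SE 0.10, adjusted p = 1.67e-09) on day 6. From day 0 to day 6 Itgb3 rose by 0.40 (SE 0.11, adjusted p = 0.00285) in WT and by 0.38 (SE 0.10, adjusted p = 0.00208) in KO. The WT call was lost without replicate 2 of WT day 0, with a value of 0.33. On day 1 the change from day 0 was 0.66 (adjusted p = 2.53e-05) in WT and 0.04 (adjusted p = 0.771) in KO, and on day 3 it was 0.19 (adjusted p = 0.137) in WT and -0.58 (adjusted p = 5.08e-05) in KO.

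Itgb5 (chr16:33829665-33949338) is the other common beta partner of Itgav. In WT, Itgb5 stood at 53.1 and 49.5 TPM on day 0, 113, 110.4 and 106 TPM on day 1, 135, 131 and 118 TPM on day 3 and 126, 149 and 161 TPM on day 6. In KO, Itgb5 stood at 57.7, 51.5 and 47.6 TPM on day 0, 128, 106 and 141 TPM on day 1, 158, 152 and 153 TPM on day 3 and 163, 149 and 146 TPM on day 6. Both genotypes rose between days 0 and 1, and they separated on day 3 alone, where KO was higher by 0.42 (SE 0.10, adjusted p = 0.00124). The rise to day 6 was 1.32 (SE 0.11, adjusted p = 7.41e-10) in WT and 1.43 (SE 0.10, adjusted p = 9.98e-12) in KO.

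Itgav (chr2:83722303-83806917), the alpha partner of both, was called in none of the 13 comparisons. In WT, Itgav stood at 35.9 and 29.4 TPM on day 0, 35.8, 34.1 and 30.6 TPM on day 1, 38.5, 44 and 41.9 TPM on day 3 and 45.2, 29.5 and 58.2 TPM on day 6. In KO, Itgav stood at 33.7, 30.9 and 32.9 TPM on day 0, 31.9, 46.6 and 38.0 TPM on day 1, 31.5, 33.1 and 29.8 TPM on day 3 and 39.8, 33.4 and 29.7 TPM on day 6. The genotypes overlapped on days 0, 1 and 6 and the spread within WT day 6 was the widest. Of the low RGD-binding chains, Itgb6 ranged from 0.32 to 3.15 TPM and was called higher in KO with 1.48, 0.99, 0.72 and 0.76 on days 0, 1, 3 and 6. Its day 3 groups overlapped, and that call was lost without replicate 1 of KO day 3 or replicate 3 of WT day 3 and on log2(TPM + 0.1), with values of 0.45 to 0.53. Itgb8, a chain that activates latent TGF-beta with Itgav, ranged from 0.28 to 1.66 TPM and rose in KO by 1.73 to day 6.

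Among the collagen-binding chains, Itga11 and Itga10 rose after the medium change in both genotypes, and both were lower in the libraries labelled KO from day 1 on. Itga11 (chr9:62677855-62783979) encodes a fibrillar collagen receptor chain of fibroblasts. In WT, Itga11 stood at 1.85 and 1.26 TPM on day 0, 3.12, 3.65 and 3.17 TPM on day 1, 13.8, 12.3 and 13.3 TPM on day 3 and 20.9, 18.8 and 25 TPM on day 6. In KO, Itga11 stood at 0.51, 0.54 and 0.11 TPM on day 0, 0.71, 0.6 and 0.63 TPM on day 1, 2.48, 2.7 and 1.55 TPM on day 3 and 8.76, 7.06 and 7.3 TPM on day 6. WT was above KO in every library of each day. The difference was -1.94 (SE 0.30, adjusted p = 4.46e-05) on day 0, -2.32 (SE 0.24, adjusted p = 5.31e-08) on day 1, -2.40 (SE 0.19, adjusted p = 5.49e-10) on day 3 and -1.35 (SE 0.17, adjusted p = 7.09e-07) on day 6. The rise to day 6 was 3.61 (SE 0.23, adjusted p = 4.99e-12) in WT and 4.19 (SE 0.24, adjusted p = 3.11e-13) in KO.

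Itga10 (chr3:96645584-96664519) encodes a collagen receptor chain best known from cartilage. In WT, Itga10 stood at 0.06 and 0.23 TPM on day 0, 9.76, 7.43 and 8.15 TPM on day 1, 6.59, 6.55 and 5.31 TPM on day 3 and 2.28, 2.8 and 3.43 TPM on day 6. In KO, Itga10 stood at 0.12, 0.15 and 0.15 TPM on day 0, 1.73, 2.33 and 2.25 TPM on day 1, 3.05, 2.32 and 1.86 TPM on day 3 and 2.14, 1.15 and 1.18 TPM on day 6. WT was highest on day 1 and declined afterwards, whereas KO lay between 1.15 and 3.05 TPM from day 1 to day 6. The difference was -1.97 (SE 0.20, adjusted p = 4.71e-08) on day 1, -1.20 (SE 0.20, adjusted p = 2.78e-05) on day 3 and -0.81 (SE 0.21, adjusted p = 0.00354) on day 6. On day 0 the WT libraries held 4 and 16 counts and the libraries labelled KO 9 to 11, so the size of the rise from day 0 is poorly determined. Itga1, another collagen receptor chain, held 8 to 37 counts in the WT libraries and 0 to 7 in those labelled KO. No KO library reached the filter's minimum count of 10, so Itga1 was tested only through WT, where it was high. It was called lower in KO on days 1, 3 and 6 (adjusted p = 0.00965, 0.00269 and 0.000745), but its place in the counts of lower chains is no finding. The day 1 call was lost with only the groups compared (-1.95). Itga2 held 11 to 23 counts in KO on day 6 and 0 to 3 in the other 20 libraries, and it met the count minimum only through KO day 6, so no test is given.

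Among the chains that bind VCAM and related ligands, Itga4 rose from almost nothing and Itgb7 declined. Itga4 (chr2:79255426-79333114), a VCAM and fibronectin receptor chain of leukocytes and of developing muscle, held 1 count in each WT library and 1 to 7 counts in those labelled KO on day 0. On day 6 the counts were 146, 191 and 201 in WT and 91, 101 and 76 in KO, all 3 below WT, a difference of -0.99 (SE 0.24, adjusted p = 0.00179). Itgb7 (chr15:102215994-102233405), a partner of Itga4 and Itgae, took the opposite course. In WT, Itgb7 stood at 7.51 and 7.25 TPM on day 0, 2.48, 2.69 and 2.73 TPM on day 1, 0.93, 1.4 and 1.1 TPM on day 3 and 1.23, 1.37 and 0.93 TPM on day 6. In KO, Itgb7 stood at 6.57, 5.42 and 7.47 TPM on day 0, 3.36, 3.34 and 3.83 TPM on day 1, 0.6, 1.24 and 1.18 TPM on day 3 and 0.47, 0.38 and 0.38 TPM on day 6. It fell by a log2 fold change of -2.81 (SE 0.22, adjusted p = 1.32e-10) in WT and -4.09 (SE 0.24, adjusted p = 3.98e-13) in KO, and on day 6 the libraries labelled KO lay below WT by -1.41 (SE 0.28, adjusted p = 0.000245). Itga9 held 10 to 21 counts in KO on day 6 and 0 to 4 elsewhere, and it too met the count minimum only through that group.

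The windows before the start sites of Itga10, Itga11 and Itga4 are shown because these chains rose from low levels after the medium change. They are the 250 bases before the RefSeq start on GRCm38.p6, given 5′ to 3′ on the gene's strand, with matches to the Runx core (TGTGGT or TGCGGT) and to the E-box (CANNTG) in capitals, both searched on both strands.
Itga10 (chr3:96645334-96645583, plus strand): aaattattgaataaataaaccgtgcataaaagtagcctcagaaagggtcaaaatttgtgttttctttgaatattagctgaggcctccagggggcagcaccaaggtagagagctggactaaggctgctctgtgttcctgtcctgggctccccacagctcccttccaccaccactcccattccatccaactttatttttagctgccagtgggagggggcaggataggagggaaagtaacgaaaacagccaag
Itga11 (chr9:62677605-62677854, plus strand): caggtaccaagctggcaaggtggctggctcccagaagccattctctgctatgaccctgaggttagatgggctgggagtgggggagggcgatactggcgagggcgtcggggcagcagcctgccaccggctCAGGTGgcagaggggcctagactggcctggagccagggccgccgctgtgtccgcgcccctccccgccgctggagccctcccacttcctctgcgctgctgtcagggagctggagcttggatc
Itga4 (chr2:79255176-79255425, plus strand): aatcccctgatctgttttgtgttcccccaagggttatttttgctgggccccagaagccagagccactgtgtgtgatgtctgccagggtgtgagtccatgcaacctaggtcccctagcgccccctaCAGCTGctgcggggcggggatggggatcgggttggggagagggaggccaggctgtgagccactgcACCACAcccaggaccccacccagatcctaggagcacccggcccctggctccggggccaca
The window of Itga10 had no match to either motif. That of Itga11 had the E-box CAGGTG, whose first base lies 121 bases before the start. That of Itga4 had the E-box CAGCTG at 125 bases and ACCACA, the Runx core read on the other strand, at 60 bases. The 21 chains with a window have 24 windows, of which 2 (8.33%) had a Runx core (those of Itga3 and Itga4), beside 18.6% of the 32851 windows of all genes. An E-box was found in 20 of the 24 (83.3%) and 66.2% of all windows, and the ETS core CCGGAA in 1 (4.17%) and 12% of all windows. Itga6, Itga7, Itgb3, Itgb4 and Lama4 are among the chains without a window, so these shares do not cover them. A match is a description of letters and says nothing of binding.

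The chains known from leukocytes and platelets stayed low. Itgb2 ranged from 0.16 to 2.24 TPM and was called higher in KO on day 3 (1.06, adjusted p = 0.00857) and day 6 (0.81, adjusted p = 0.0115). Itga2b, the platelet fibrinogen receptor chain, ranged from 0.51 to 4.26 TPM, rose by 2.35 in WT and 2.51 in KO to day 6, and was called lower in KO on days 1 and 3 (-0.73 and -0.59). The day 3 call was lost without replicate 1 of KO day 3 (and without replicate 2 of WT day 3), with values of -0.52 to -0.39. Itgal held 0 to 17 counts, Itgam 3 to 23 and Itgae 0 to 7. The 10 leukocyte and macrophage markers summed to 12.4 to 27.9 TPM over all groups, mostly from Cd14 and Cd68, and the 6 platelet markers to 0.3 to 5.33 TPM.

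Among the laminin alpha chains, Lama5 was by far the most abundant, Lama4 rose in both genotypes but was far lower in the libraries labelled KO, and Lama2 was higher in the libraries labelled KO throughout. Lama4 (chr10:38965515-39110188) is an alpha chain of vessels, nerve and embryonic muscle. In WT, Lama4 stood at 0.56 and 0.37 TPM on day 0, 4.06, 3.5 and 2.89 TPM on day 1, 7.73, 8.07 and 8.89 TPM on day 3 and 11.1, 10.9 and 14.7 TPM on day 6. In KO, Lama4 stood at 0.08, 0.03 and 0.06 TPM on day 0, 0.14, 0.13 and 0.25 TPM on day 1, 0.49, 0.74 and 0.38 TPM on day 3 and 1.27, 1.01 and 1.1 TPM on day 6. The highest library labelled KO on day 6 was below the lowest WT library on day 1. The difference was -3.03 (SE 0.39, adjusted p = 4.24e-06) on day 0, -4.33 (SE 0.23, adjusted p = 7.17e-13) on day 1, -3.79 (SE 0.18, adjusted p = 1.26e-13) on day 3 and -3.30 (SE 0.17, adjusted p = 1.27e-13) on day 6, where WT was 9.88-fold higher. The rise to day 6 was 4.51 (SE 0.22, adjusted p = 4.11e-14) in WT and 4.24 (SE 0.31, adjusted p = 2.87e-11) in KO, the latter from 3 to 7 counts per library on day 0.

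Lama2 (chr10:26981285-27617191) is the alpha chain of the adult muscle basement membrane. In WT, Lama2 stood at 0.34 and 0.33 TPM on day 0, 1.54, 1.03 and 1.47 TPM on day 1, 1.7, 1.78 and 2.04 TPM on day 3 and 2.89, 2.92 and 4.1 TPM on day 6. In KO, Lama2 stood at 1.48, 1.21 and 1.25 TPM on day 0, 2.33, 3.37 and 3.07 TPM on day 1, 4.52, 5.13 and 3.97 TPM on day 3 and 7.96, 6.81 and 6.29 TPM on day 6. All libraries labelled KO were above all WT libraries on each day, and both genotypes were highest on day 6. The difference was 1.72 (SE 0.23, adjusted p = 6.66e-06) on day 0, 1.18 (SE 0.16, adjusted p = 2.89e-06) on day 1, 1.38 (SE 0.15, adjusted p = 9.82e-08) on day 3 and 1.23 (SE 0.14, adjusted p = 2.45e-07) on day 6. The rise to day 6 was 3.00 (SE 0.22, adjusted p = 3.73e-11) in WT and 2.51 (SE 0.16, adjusted p = 1.32e-12) in KO.

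Lama5 (chr2:180176373-180225904) is the widespread alpha chain of adult epithelial and vascular basement membranes. In WT, Lama5 stood at 45.6 and 39.5 TPM on day 0, 65.1, 66.2 and 59.5 TPM on day 1, 62.9, 66.2 and 69.2 TPM on day 3 and 62.2, 58.3 and 75.9 TPM on day 6. In KO, Lama5 stood at 59.4, 55.4 and 52.1 TPM on day 0, 62.7, 59.3 and 75.3 TPM on day 1, 65.8, 72.4 and 49.7 TPM on day 3 and 88.3, 71.8 and 69.1 TPM on day 6. The genotypes overlapped on days 1, 3 and 6, and on day 0 the libraries labelled KO were the higher ones. It was called higher in KO on day 0 with 0.44 (SE 0.15, adjusted p = 0.0447) and on day 6 with 0.39 (SE 0.13, adjusted p = 0.0199), the latter with overlapping libraries. Both calls were fragile: the former did not hold in 13 alternatives, among them any single day 0 library, any WT day 3 library, replicate 2 of WT day 1 or replicate 2 of KO day 6 left out (values 0.31 to 0.58), and the latter in 6, among them without replicate 1 of KO day 6 and without replicate 1 or 2 of WT day 6 (0.22 to 0.34).

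Of the laminin alpha sum, Lama4 made up 1.06% ± 0.200 (SD, n = 2) on day 0 and 15.03% ± 0.509 (SD, n = 3) by day 6 in WT, and 0.0988% ± 0.0408 (SD, n = 3) and 1.33% ± 0.0902 (SD, n = 3) in KO. Lama2 made up 0.775% and 4.05% in WT, and 2.30% and 8.29% in KO. Lama5 went from 98.1% to 80.8% in WT and from 97.6% to 90.2% in KO. The second alpha chain after Lama5 was thus Lama4 in WT and Lama2 in the libraries labelled KO on every day. Of the other alpha chains, Lama3 held 11 to 17 counts in KO on day 6 and 0 to 6 elsewhere, and met the count minimum only through that group. Lama1 held 1 to 10 counts in the WT libraries and 0 to 2 in those labelled KO.

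**Figure D4:**
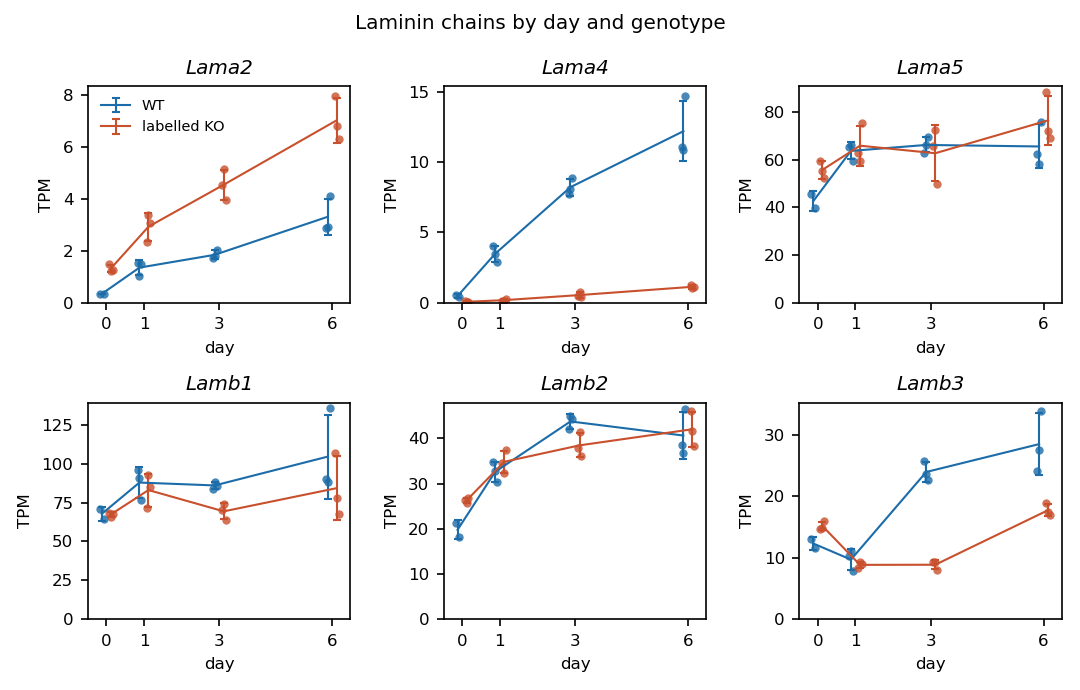
TPM of 6 laminin chains is plotted against day, with 1 point per library and lines joining group means with bars of 1 SD, in blue for WT and orange for the libraries labelled KO. Lama4 climbs to 12.2 TPM in WT and to 1.13 TPM in KO, Lama2 is above WT in KO on each day, and Lamb3 is higher in WT on days 3 and 6.

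The sum of markers of fibroblasts and their adipogenic relatives was lower in KO on each day, as were Lama4, Itga11 and Itgb3. Like these chains, the sum rose from day 0 to day 6 in both genotypes. The summed level of 6 such markers (mostly Col1a1 and Ly6a) was 157 to 181 TPM in WT and 44.7 to 87.9 TPM in KO on day 0, 542 to 618 against 171 to 201 TPM on day 1, 1680 to 1904 against 549 to 643 TPM on day 3, and 1855 to 2351 against 1323 to 1426 TPM on day 6. Single markers were not compared. On days 3 and 6, 1 of them was at 3 counts or fewer in every WT library, and none was that low throughout KO. The fibroblast gene Lum reached at most 8 counts. The part of these markers in the results for Lama4, Itga11 and Itgb3 was not tested. The 8 endothelial markers summed to at most 1.79 TPM and the 5 Schwann and glial markers to 0.79 to 2.6 TPM.

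Among the laminin beta chains, Lamb1 was the most abundant, Lamb2 rose in both genotypes and Lamb3 rose in WT and fell in KO by day 3. Lamb3 (chr1:193294353-193343878) is a chain of epithelial laminins. In WT, Lamb3 stood at 13.0 and 11.6 TPM on day 0, 10.2, 11.1 and 7.77 TPM on day 1, 25.7, 23.6 and 22.6 TPM on day 3 and 24.1, 27.5 and 34.0 TPM on day 6. In KO, Lamb3 stood at 14.7, 14.9 and 15.9 TPM on day 0, 8.24, 9.24 and 9 TPM on day 1, 9.26, 9.31 and 7.97 TPM on day 3 and 18.8, 17.4 and 17.0 TPM on day 6. On day 0 all libraries labelled KO were above WT, on day 1 the genotypes overlapped, and on days 3 and 6 all WT libraries were above all those labelled KO. The difference was 0.36 (SE 0.11, adjusted p = 0.0274) on day 0, -1.29 (SE 0.10, adjusted p = 6.1e-10) on day 3 and -0.54 (SE 0.10, adjusted p = 8.86e-05) on day 6. Its day 0 call did not hold in 7 alternatives, among them library size alone, the TPM scale and any single day 0 library but replicate 1 of KO left out (0.28 to 0.41). Against day 0, WT changed by 0.79 on day 3 and 1.03 on day 6 and KO by -0.86 on day 3. Of 7 epithelial markers, the summed level was 13.8 to 15.1 TPM in WT and 4.42 to 5.09 TPM in KO on day 0, 3.73 to 7.97 against 3.57 to 3.84 TPM on day 1, 5.94 to 12.9 against 1.27 to 2.62 TPM on day 3 and 2.82 to 5.35 against 1.83 to 3.03 TPM on day 6, while Epcam reached at most 8 counts. Krt14 alone reached 14.8 TPM at its highest. The part of these markers in the results for Lamb3, Itgb4 and Itgb6 was not tested.

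Lamb2 (chr9:108479847-108490530) is the beta chain enriched at the neuromuscular junction. In WT, Lamb2 stood at 21.3 and 18.3 TPM on day 0, 34.8, 32.7 and 30.4 TPM on day 1, 42.0, 45.1 and 44.3 TPM on day 3 and 38.7, 36.8 and 46.5 TPM on day 6. In KO, Lamb2 stood at 26.3, 25.8 and 26.8 TPM on day 0, 34.6, 32.5 and 37.4 TPM on day 1, 38.0, 41.3 and 36.1 TPM on day 3 and 46.1, 41.6 and 38.4 TPM on day 6. The genotypes separated on day 0 with KO higher by 0.47 (SE 0.08, adjusted p = 0.000236). On day 3 all libraries labelled KO lay below WT, without a called difference, and on days 1 and 6 the genotypes overlapped. The rise to day 6 was 0.85 (SE 0.08, adjusted p = 6.73e-09) in WT and 0.56 (SE 0.07, adjusted p = 3.77e-07) in KO.

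Lamb1 (chr12:31265146-31329644) is the common beta chain. In WT, Lamb1 stood at 71.0 and 64.4 TPM on day 0, 96, 90.8 and 76.8 TPM on day 1, 83.9, 88.4 and 85.8 TPM on day 3 and 89.9, 87.9 and 136 TPM on day 6. In KO, Lamb1 stood at 68.4, 65.7 and 67.9 TPM on day 0, 71.7, 92.7 and 84.7 TPM on day 1, 70.4, 73.8 and 63.8 TPM on day 3 and 107, 78.0 and 67.7 TPM on day 6. It was not called between genotypes on any day, and the spread on day 6 was wide in both. In WT it rose by day 6 with 0.40 (SE 0.10, adjusted p = 0.00185).

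Among the gamma chains, Lamc1 (chr1:153218922-153332786), the partner in most laminins, was the abundant one. In WT, Lamc1 stood at 41.3 and 36.6 TPM on day 0, 39.9, 41.8 and 33.8 TPM on day 1, 49.0, 50.8 and 51.7 TPM on day 3 and 47.5, 43.2 and 57.3 TPM on day 6. In KO, Lamc1 stood at 40.6, 39.1 and 37.5 TPM on day 0, 38.1, 42.7 and 44.1 TPM on day 1, 46.3, 49.4 and 36.7 TPM on day 3 and 61.9, 52.4 and 51.2 TPM on day 6. The day 6 libraries overlapped, with a called difference of 0.29 (SE 0.09, adjusted p = 0.00802) that was lost without replicate 2 of WT day 6, with library size alone and on the TPM scale (0.16 to 0.24). In KO it rose by day 6 with 0.38 (SE 0.09, adjusted p = 0.000426). Lamc3 rose from 0 to 4 counts on day 0 to 13 to 32 on day 6.

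Pairs of chains were compared as log2 ratios of TPM within each library (0.1 TPM added to each). The test was an exact two-sided permutation within days or genotypes, with adjustment over 12 tests. These ratios reuse chains whose own differences are given above, and some share Lama4 or Itga7, so they are no separate support. Nor need a ratio mark a switch: between genotypes Itgb5 was called on day 3 alone, and Lama5 on days 0 and 6 alone. The ratio of Lama2 to Lama4 was higher in KO than in WT by 4.43 on average (3.54 to 5.00 on single days), that of Lama5 to Lama4 by 3.30 (2.23 to 3.77), and those of Itgb3 to Itgb5 and Itga7 to Itga6 were lower, at -1.71 (-2.30 to -1.20) and -1.22 (-1.88 to -0.57). Each had p = 1.25e-05, the smallest that 80000 arrangements allow by exact permutation (adjusted p = 3.75e-05), and no genotype overlap on any of 4 days. The ratio of Lamb2 to Lamb1 was higher by 0.27 (exact p = 0.000387, adjusted p = 0.00093), with overlap on day 1. With 1 TPM added in place of 0.1, the differences were smaller for the ratios to Lama4, at 2.75 for Lama2 (1.26 on day 0) and 2.04 for Lama5 (0.85 on day 0), since Lama4 in KO lay under 0.1 TPM on day 0. The ratio of Itga7 to Itga5 changed side: it was lower in KO on day 0 (-0.18) and day 1 (-0.11) and higher on day 3 (0.77) and day 6 (0.98), with a mean difference of 0.37 (exact p = 0.0072, adjusted p = 0.00785).

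From day 0 to day 6 the ratio of Itga7 to Itga5 rose by 1.13 (0.55 in WT, 1.70 in KO) and that of Itga7 to Itga6 by 1.47 (2.12 in WT, 0.81 in KO). The ratio of Itgb3 to Itgb5 changed by -0.995 (-0.91 in WT, -1.08 in KO), Lama5 to Lama4 by -3.18 (-3.84 in WT, -2.53 in KO) and Lama2 to Lama4 by -1.07 (-1.50 in WT, -0.65 in KO). Each of these had an exact p = 0.005, the smallest that 200 arrangements allow (adjusted p = 0.006). The ratio of Lamb2 to Lamb1 rose by 0.41 (exact p = 0.01, adjusted p = 0.01). With 1 TPM added, the change in Lama5 to Lama4 was -1.56 (-2.56 in WT, -0.56 in KO), still called, and that in Lama2 to Lama4 was -0.35 (adjusted p = 0.37), with -1.49 in WT and 0.78 in KO, so its size and, in KO, its direction depend on the pseudocount at these low levels.

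**Figure D5:**
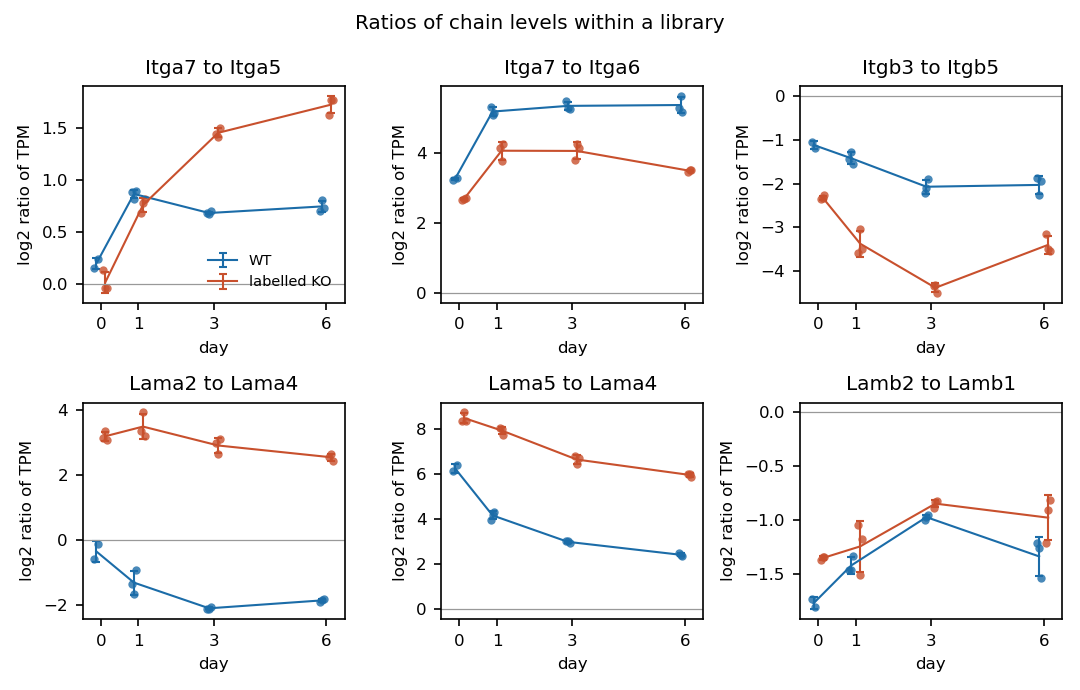
The log2 ratio of TPM of 6 pairs of chains is plotted against day, with 1 point per library and lines joining group means with bars of 1 SD, in blue for WT and orange for the libraries labelled KO. The lines for Lama2 to Lama4, Lama5 to Lama4, Itgb3 to Itgb5 and Itga7 to Itga6 do not meet, and those for Itga7 to Itga5 cross between days 1 and 3.

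Genes that work with these chains were also compared between genotypes. Of 31 tested integrin adaptor and focal adhesion genes, 4 were up and 10 down in KO on day 6. Among all tested genes 22% were up and 20.8% down. The share of adaptor genes called was thus near the 42.9% of all genes. Itgb1bp2 (melusin, a muscle protein that binds the Itgb1 tail) was at 183 ± 23.9 against 8.45 ± 0.822 TPM (SD, n = 3 each), a log2 fold change of 4.58 (SE 0.19, adjusted p = 4.37e-15). Flnc, the muscle filamin, was higher by 0.85 (SE 0.12, adjusted p = 3.27e-06), and Flna, the filamin of non-muscle cells, and the adhesion kinase Ptk2b were lower, at -1.23 (SE 0.09, adjusted p = 1.24e-10) and -1.27 (SE 0.07, adjusted p = 1.23e-12). Of 13 other basement membrane and laminin receptor genes 6 were higher and 6 lower, led by Nid2 (nidogen, which bridges laminin and collagen IV networks; -1.78), Tinagl1 (-1.50), Agrn (agrin, which clusters acetylcholine receptors; 1.33) and Bcam (a Lama5 receptor; 1.26). Of 22 other integrin ligands 5 were higher and 13 lower, led by Emilin1 (-2.83), Npnt (2.23), Fbln5 (-2.11) and Jam2 (-1.88).

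Reads of overlapping genes may limit some of these values. Of the 34 loci, 17 overlap another annotated gene, such as Itga7 with the lncRNA Gm46186 over 14461 bases. These overlaps are of whole loci, introns included. Use of strand and the gene models behind the counts are not given in the sources used here, so whether such pairs shared reads is not known.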

How the data were processed

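Per the submitters' processing notes, Bowtie2 and RSEM were used with the mouse build mm10; their roles and versions, the gene models and strand handling are not given in the sources used here. The authors deposited estimated counts per gene symbol, already as whole numbers (rounding changed 0 values). The TPM values of the same genes and libraries were computed by the authors and used as deposited; TPM scales for transcript length and library depth. All columns of both tables were matched to samples by name.

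From the estimated counts, edgeR 4.0.16 in R 4.3.3 (filterByExpr with minimum count 10 and minimum total 15, TMM scaling, a group-means model over all 23 libraries, quasi-likelihood F-test) gave 13 comparisons: KO against WT on 4 days, 3 days against day 0 in each genotype, and 3 genotype-by-time interactions. Benjamini-Hochberg adjustment covered the 14187 genes of each comparison, with a threshold of 0.05. TPM gave levels, shares and the 12 ratio tests (exact permutation). Limma 3.58.1 on log2(TPM + 1) and log2(TPM + 0.1), DESeq2 1.42.0, RLE scaling, library size alone, a minimum mean count of 50 or no filter, fits restricted to the groups of a comparison, a replicate block, an adjusted p under 0.01 and omission of each library were alternatives. The procedure was tested on simulated data.

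The chains and the lists of adaptors, ligands and cell type markers were chosen with earlier results of these data known. All chains are named but 1, which is counted with the others and otherwise not reported here. Every library's value is given for chains with a group mean of at least 5 TPM that were called at 2-fold or more without overlap of groups between genotypes or between day 6 and day 0, and always for Itga3, Itga5, Itga6, Itga7, Itgav, Itgb1, Lama2, Lama4, Lama5, Lamb1, Lamb2 and Lamc1. Of the other lists, at most 4 called genes of at least 5 TPM with the largest change are named in each comparison. A count of 3 or fewer was taken as the floor, and no fold is given against a group with all libraries at or under it. Replicate libraries differed by more than sampling noise. Loci and windows before start sites came from RefSeq (GRCm38.p6), in which all 34 chains were found by symbol, 21 of them with a window.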

Additional observations from a re-analysis of the deposited data

Results flagged for a closer look

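For 12 chain and day combinations the change since day 0 differed between genotypes by edgeR's interaction test (adjusted p under 0.05 over all genes). All values are log2 differences of the change in the libraries labelled KO minus that in WT. The share of all tested genes called was 3.95% on day 1, 10.7% on day 3 and 13% on day 6, against 2, 5 and 5 of 32 chains. The interactions share day 0 libraries, of which WT had 2.

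Itga6, the progenitor laminin receptor chain, had 1.02 on day 3 and 2.04 on day 6; it was below its day 0 level on both days in WT and above it on day 6 in KO. Itga7, the muscle laminin receptor chain, had 0.40 on day 6, with a rise in both genotypes. Lamb3, an epithelial laminin chain, had -1.65 on day 3 and -0.90 on day 6, and Itga5, the fibronectin receptor chain, -0.86 on day 3 and -0.67 on day 6. Itgb3, a vitronectin receptor chain, had -0.62 on day 1 and -0.77 on day 3, Lamb2 had -0.51 on day 3, Itgb7 had -1.29 on day 6 and Itga10 had -2.04 on day 1. Itga10 rests on 4 and 16 counts in WT on day 0, and its call (adjusted p = 0.049) was lost in 22 alternatives, with values of -2.12 to -1.31. Itgb3 on day 1 lost its call in 8 alternatives (-0.66 to -0.51), 5 of them with replicate 1 of KO day 0, either WT day 0 library, or replicate 1 or 2 of WT day 1 left out. Itgb7 on day 6 lost its call on log2(TPM + 1), where it was -0.45, and at an adjusted p under 0.01, and Itga7 on day 6 lost its call at an adjusted p under 0.01.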

How the results depend on the processing

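Of 192 calls of single chains, 32 were lost in at least 1 of the alternatives that gave them a value, 2 of them only at an adjusted p under 0.01; 27 had no value in at least 1 alternative, and none changed direction where it had one. The counts of chains called between genotypes on single days and over time stayed within 1.5 times in all alternatives. The interaction counts moved more. On day 1 (2 chains) it was 1 with RLE scaling, 1 with library size alone, 1 with only the groups compared, 6 with DESeq2 and 0 at an adjusted p under 0.01; leaving out single libraries gave 0 (replicate 1 of KO day 0, replicate 1 of WT day 0 or replicate 2 of WT day 1) to 4 (replicate 3 of KO day 1). On day 3 (5 chains) it was 8 with limma on log2(TPM + 1) and 8 with only the groups compared. On day 6 (5 chains) it was 8 with DESeq2, 8 with limma on log2(TPM + 1), 8 on log2(TPM + 0.1) and 3 at an adjusted p under 0.01. Of the ratios, the day 6 change of Lama2 to Lama4 was -0.35 (adjusted p = 0.37) with 1 TPM added, and no other ratio lost its call, also with any library left out, though those to Lama4 shrank with 1 TPM added. Leaving aside Itga2, Itga9 and Lama3, chosen after seeing the data, gave 18, 24 and 5 chains in the comparisons that use KO day 6.

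The replicate block gave 10, 11, 15 and 21 chains between genotypes, 19, 19 and 23 over time in WT, 14, 19 and 27 in KO, and 1, 5 and 7 in the interactions. Same-numbered libraries did not deviate together (mean r of -0.09 to 0.05), and the labels do not say that numbers mark a shared culture, so the block is no paired design. On log2(TPM + 0.1) the median of all genes moved from 0.05 to as much as 0.20 in a comparison over time, and adding 1 TPM shrinks changes of low genes by construction. Depth limits the folds of chains with few counts on day 0, such as Lama4 in KO and Itga10.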

Other observations

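The partners of these chains also changed with time in medium with low serum. Of 13 tested basement membrane and laminin receptor genes, 10 rose and 3 were not called in WT from day 0 to day 6, and 9 rose and 3 fell in KO, beside 32.6% higher and 31.1% lower among all genes in WT and 36.6% and 33.5% in KO (edgeR, adjusted p under 0.05). In WT these were led by Nid2 (2.96 on the log2 scale), Ntn4 (1.61), Sparc (1.61) and Hspg2 (perlecan; 1.41), and in KO by Bcam (2.88), Nid2 (2.29), Ntn4 (2.25) and Agrn (2.15). Postn (periostin, a matrix ligand of integrins) rose in both, by 3.35 in WT and 3.39 in KO, whereas Npnt (nephronectin) had -2.46 in WT.

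Of 31 tested adaptor genes, 13 rose and 5 fell in WT from day 0 to day 6, and 12 rose and 13 fell in KO, to be read against the shares of all genes given above. Itgb1bp2 (melusin) went from 0.0650 to 8.45 TPM in WT and from 0.103 to 183 TPM in KO (group means), and Flna fell by 1.05 on the log2 scale in KO. In the interaction on day 3, 10 of the 31 adaptor genes were called lower in KO, beside 4.06% of all genes.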
